A study of Mus musculus with 6 samples.

Results

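Among the genes measured in metastasis-initiating cells (MICs) of mouse mammary tumors, 87 stood lower in MICs than in non-MICs in each of 3 pairs of libraries, and these genes are described here. They were chosen from the deposited normalised read counts, from 12060 genes with a mean of 50 or more over the 6 libraries and 22310 genes in all. A gene was kept when log2((MIC + 1)/(non-MIC + 1)) was -0.4 or lower in every pair, the pairs being libraries of the same replicate number. These thresholds were met by 88 of the 12060 genes, or 0.73%, of which 1 was not used here. Because the choice rests on this very contrast, the size and the direction of the difference in the chosen genes are a description and not a result. Counts of chosen genes that passed a test of this contrast are printed for completeness and support nothing.

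The cells were primary tumor cells of MMTV-PyMT mice, in which the polyoma middle T oncogene is driven by a mammary tumor virus promoter active in mammary epithelium. The mice were on the FVB/N background and 12 to 18 weeks old, the labels give the genotype as WT beside the MMTV-PyMT line, and all libraries carry the same transgene. Cells were plated overnight in DMEM/F12 with serum, insulin and EGF and then sorted. MICs were gated as Lin-CD24+CD90+ cells, while Lin-CD24+CD90- cells made up the non-MICs, and either population gave 3 libraries without any treatment. Lin- marks the removal of cells that carry blood, endothelial or red cell surface proteins. Both groups are thus CD24+ cells from the tumors, cultured for 1 day, that differ by CD90, the product of Thy1.

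The mammary duct is built of an inner luminal layer and an outer basal, myoepithelial layer. Hormone receptor negative luminal progenitors give rise to the alveolar cells that make milk, and the ETS factor Elf5 is their best known regulator. Luminal and glandular epithelia also express secreted serine proteases of the kallikrein family, water channels, ion pumps of the secretory pathway and tight junction proteins. CD90 is found, among other cell types, on basal, mesenchymal and neural cells.

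The libraries held between 31467281 and 51759769 reads, recovered from the normalised values, and 1 read was worth between 0.676 and 1.11 normalised counts. Thy1, whose product set the gate, stood at 1509, 301 and 755 in MICs against 16.9, 21.1 and 12.6 in non-MICs, given here and throughout in the order of replicates 1, 2 and 3. Cd24a, shared by both gates, stood at 11309, 19406 and 17276 in MICs against 14009, 14882 and 18754 in non-MICs. The lineage genes Ptprc and Pecam1 did not exceed 10.0 and 19.4 in any library. The labels thus matched the sorting gene in all 6 libraries. Of 24 basal and myoepithelial markers with a mean of 50 or more, none was among the chosen genes, beside 0.73% of all genes. By the mirrored rule of 0.4 or more in every pair 13 were higher in MICs, beside 1.14% of all genes. The 25 markers in the table summed to between 119766 and 698061 in MICs and between 83238 and 226664 in non-MICs. The sum was higher in the MIC library of pairs 1 and 3, at 698061 against 226664 and 119766 against 83238, and lower in that of pair 2, at 122125 against 132300. In bulk RNA, fewer cells of a type and less RNA per cell cannot be told apart, and the part of basal content in any value below was not tested.

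The lowest mean log2 ratio was that of Acod1 at -1.84 and the highest that of Hdac11 at -0.46, with a median of -0.76 over the 87 genes and 26 genes at -1 or lower. Over all 12060 genes the median was -0.07. In pairs 1, 2 and 3 the chosen genes had median log2 ratios of -0.99, -0.72 and -0.54, beside -0.08, -0.03 and -0.06 over all genes. The lowest of a gene's 3 ratios fell in pair 1 for 54 genes, in pair 2 for 23 and in pair 3 for 10. Pair 1 therefore carried the lowest ratio for most of them. The mirrored rule found more genes, 137 that were higher in MICs in every pair, or 1.14% of the genes with a mean of 50 or more.

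**Figure D1:**
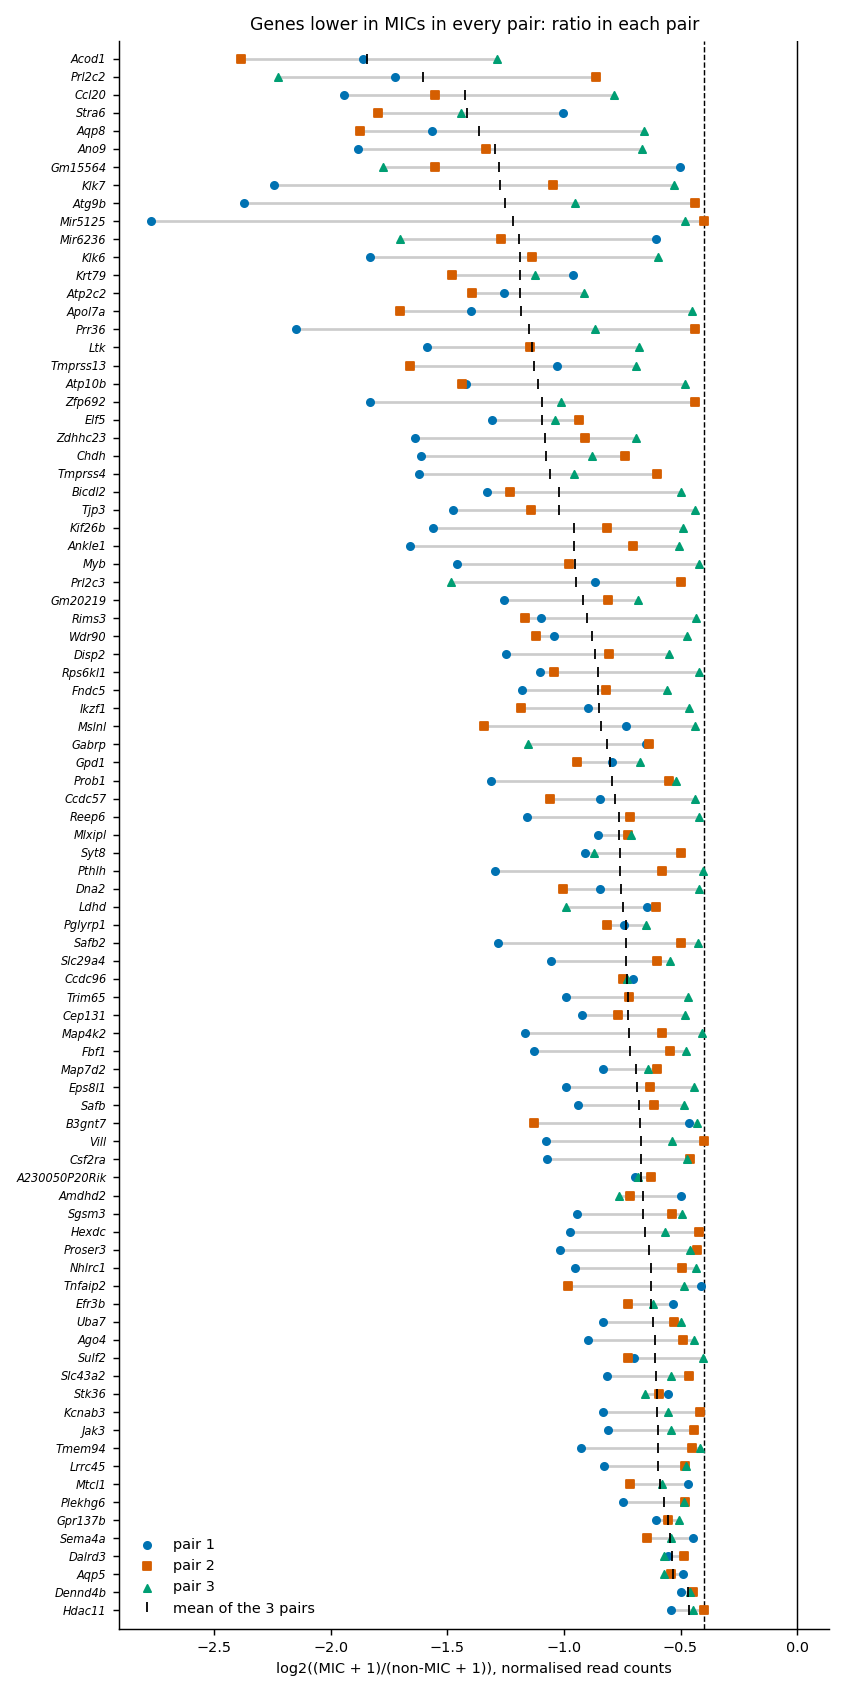
Log2 ratio of MICs to non-MICs for the 87 genes, 1 row per gene, with a symbol for each of the 3 pairs and a tick at their mean. The dashed line marks the limit of -0.4 and every symbol lies to its left because the rule requires it. Pair 1 (circles) is farthest left for 54 genes and pair 3 (triangles) for 10, a count that was not made over all genes.

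For most of these genes the range of levels between replicates was wider than the mean difference between the sorted groups. The 3 MIC values lay below the 3 non-MIC values in 22 of the 87 genes, while this held for 547, or 4.54%, of all genes with a mean of 50 or more. Since a gene lower in every pair is also favoured for this order, nothing is read from that count. Between the pairs with the highest and the lowest mean level of log2(value + 1), the gap was 1.26 in the median chosen gene and 0.62 in the median of all genes. It exceeded the size of the gene's own mean log2 ratio in 62 of the 87 genes. A range is here set against a mean, and the same count was not made over all genes. Their median gap of 0.62 stands beside a median mean log2 ratio of -0.07, so the count is not read as a trait of the chosen genes. The largest gap, 7.13, was that of Acod1. The highest pair was pair 3 for 35 of the 87 genes, pair 2 for 34 and pair 1 for 18. Over all genes with a mean of 50 or more, the shares were 36.85%, 40.20% and 22.95% for pairs 3, 2 and 1. The counts are therefore not read as a trait of the chosen genes. The chosen genes also had lower normalised counts, with a median of 294 against 1160 over all genes, 14 of them under 100 and 8 with fewer than 10 reads in at least 1 library.

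A pair that took no part in the choice gives a check of the same measure in samples the rule did not use. When the rule was applied to pairs 2 and 3 alone, 137 genes met it, and 88 of them (64.2%) were at -0.4 or lower in pair 1, compared with 28.3% of all genes there. Chosen on pairs 1 and 3, 523 genes met it, of which 87 (16.6%) reached the limit in pair 2, compared with 19.5% of all genes. Chosen on pairs 1 and 2, 1049 genes met it, of which 80 (7.63%) reached the limit in pair 3, compared with 7.12% of all genes. Genes chosen without pair 1 were thus at the limit in pair 1 more often than all genes were, whereas the shares in pairs 2 and 3 lay near those of all genes. All genes were not matched to the chosen ones in level or GC content, so part of a gap can come from those. The ratios of pairs 2 and 3 had a Spearman correlation of 0.0005 over the 12060 genes, those of pairs 1 and 2 of 0.42 and those of pairs 1 and 3 of 0.37. These values describe genes, which are not independent replicates.

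**Figure D2:**
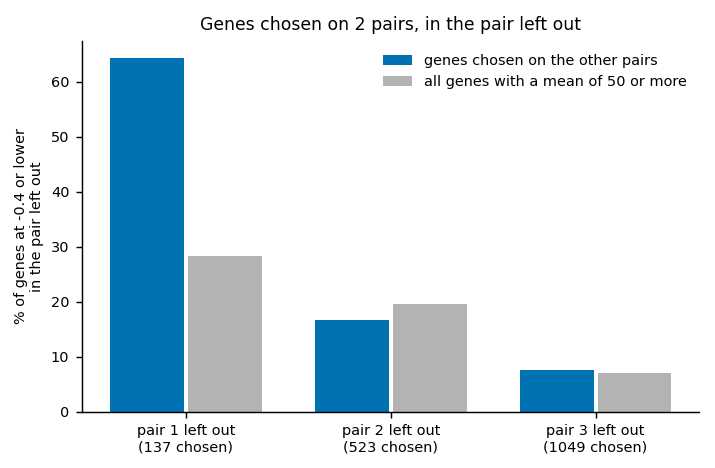
Share of genes at a log2 ratio of -0.4 or lower in a pair that was left out of the choice, as a percentage, for genes chosen on the other pairs (blue) and for all genes with a mean of 50 or more (grey). The blue bar is above the grey one for pair 1, at 64.2% against 28.3%, below it for pair 2 and close to it for pair 3.

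Across all genes the test without a block (limma on log2(value + 1)) called 0 of 22310 genes at an adjusted p under 0.05, with 322 genes at an unadjusted p under 0.05. With the replicate number as a block limma called 29 genes, of which 2 were lower in MICs (0.00896% of 22310), and Mir6236 was the chosen gene among them. The quasi-likelihood test of edgeR on the recovered reads with the same block called 315 genes, of which 83 were lower (0.372%), and 36 of the 87 were among these. DESeq2 with the block called 133 genes, 23 of them lower (0.103%), including 18 of the 87. Without the block edgeR called 0 genes and DESeq2 called 1, which was higher in MICs, with 295 and 266 genes at an unadjusted p under 0.05. The rule used this contrast, so nothing is read from the counts of chosen genes.

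The secreted and membrane serine proteases were Klk6, Klk7, Tmprss4 and Tmprss13. Klk6, a kallikrein of secretory epithelia, had the highest level per kilobase of exon, 4262 normalised counts against 591 for Klk7, 42.4 for Tmprss4 and 22.8 for Tmprss13. Its normalised counts were 3090.4, 1484 and 7889 in MICs against 11008, 3269 and 11946 in non-MICs. Klk7, which sheds surface cells in skin by cleaving desmosomal proteins, stood at 177, 31.1 and 2298 in MICs against 840.4, 65.5 and 3312 in non-MICs. The groups overlapped for both genes, because pair 3 was high and pair 2 low in MICs and non-MICs alike, and the log2 ratios of -1.83, -1.14 and -0.60 for Klk6 and -2.24, -1.05 and -0.53 for Klk7 had the same order of pairs. Both genes lie on chromosome 7 on the plus strand, Klk7 at chr7:43811294-43816359 and Klk6 at chr7:43824499-43832030 (GRCm38), with a gap of 8.14 kb and no gene with a mean of 50 or more between them.

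The promoter of Klk7 is shown since its neighbour was chosen with it, as the 250 bases before the RefSeq start (GRCm38.p6, chr7:43811044-43811293, plus strand) with CG pairs in capitals.
Klk7: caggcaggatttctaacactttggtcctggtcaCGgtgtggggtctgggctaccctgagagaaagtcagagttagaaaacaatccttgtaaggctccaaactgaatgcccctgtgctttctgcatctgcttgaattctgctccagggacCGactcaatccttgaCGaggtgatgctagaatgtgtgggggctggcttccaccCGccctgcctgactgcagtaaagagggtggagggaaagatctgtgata
It holds 4 CG pairs.

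The kallikrein genes are a cluster, and 5 of the 9 in the table had a mean of 50 or more. Klk6 and Klk7 are lower in every pair by the rule. The other 3, Klk8, Klk10 and Klk14, were also lower in every pair, as were 27.5% of all genes with a mean of 50 or more, and the median of their mean log2 ratios was -1.12 beside -0.07 over all genes. With the block edgeR called 1 of these 3 lower, beside 0.372% of all genes tested, and limma without a block called none. Klk10, which missed the limit in pair 3, stood at 164, 121 and 605 in MICs against 705, 517 and 793 in non-MICs, with log2 ratios of -2.10, -2.08 and -0.39. It was the one called by edgeR with the block, at an adjusted p of 1.83e-08. Klk8, a protease known from skin and brain, stood at 2306, 4081 and 11527 in MICs against 5044, 5975 and 12222 in non-MICs with ratios of -1.13, -0.55 and -0.08, and Klk14 at 34.5, 6.67 and 41.9 in MICs against 188, 8.45 and 66.6 in non-MICs with ratios of -2.42, -0.30 and -0.66. Their adjusted p by edgeR with the block was 0.15 for Klk8 and 0.06 for Klk14, so neither passed. The ratio was nearest to 0 in pair 3 for Klk10, Klk8, Klk7 and Klk6, and in pair 2 for Klk14, where only 6 to 8 reads were counted per library. Klk8, Klk10 and Klk14 were picked out for this description after their values were seen.

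**Figure D3:**
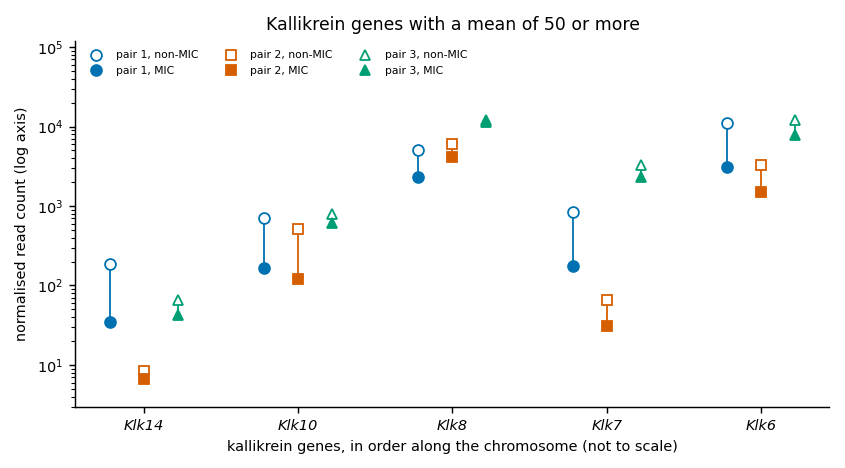
Normalised read count (log axis) of the 5 kallikrein genes with a mean of 50 or more, in their order along the chromosome, with non-MIC (open) and MIC (filled) libraries of a pair joined by a line. The filled symbol is under the open one in each of the 15 pairings, and the lines of pair 3 are short for Klk8 and Klk10.

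The type II membrane proteases Tmprss4 and Tmprss13 are neighbours on chromosome 9, 115 kb apart with no gene of a mean of 50 or more between them. Tmprss4 stood at 48.5, 45.6 and 116 in MICs against 151, 69.7 and 227 in non-MICs. Tmprss13 stood at 28, 16.7 and 109.5 in MICs against 58.2, 54.9 and 177 in non-MICs. Pair 3 was the highest in both groups for both genes, and the groups overlapped. Their mean log2 ratios were -1.06 ± 0.52 and -1.13 ± 0.49 (SD, n = 3 pairs). Tmprss4, Tmprss13 and the members named in the groups that follow beyond the 15 lowest ratios, the 8 highest levels and the lists were chosen after their values were seen.

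Elf5, the luminal and alveolar regulator, stood at 435, 14.5 and 542 in MICs against 1078, 28.5 and 1112 in non-MICs. Its level in pair 2 was low in both groups, at 13 and 27 reads, whereas pairs 1 and 3 had similar levels, and the log2 ratios of -1.31, -0.93 and -1.04 were close to each other. Gabrp, a subunit of the GABA-A receptor found in luminal progenitors, followed the same order, at 303, 20.0 and 791 in MICs against 475, 31.7 and 1765 in non-MICs. Pair 2 was again the lowest by far, and the groups overlapped. Pglyrp1, a secreted protein that binds bacterial peptidoglycan, stood at 534, 358 and 368 in MICs against 894, 632 and 576 in non-MICs. Tnfaip2, a gene induced by tumor necrosis factor, stood at 1078, 1096 and 1954 in MICs against 1437, 2164 and 2733 in non-MICs. Of these, Pglyrp1 had a lower value in every MIC library than in any non-MIC library. Myb, a transcription factor of progenitor cells, stood at 124, 45.6 and 199 in MICs against 343, 90.9 and 267 in non-MICs, with its lowest levels in pair 2 as well.

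These 4 genes, Elf5, Gabrp, Pglyrp1 and Tnfaip2, belong to a list of 22 luminal progenitor markers, of which 21 had a mean of 50 or more. Of the 17 that the rule did not choose, 6 were lower and 3 higher in MICs in all pairs at any size, beside 27.5% and 13.4% of all genes. The median of their mean log2 ratios was -0.36 beside -0.07 over all genes. With the block edgeR called 3 of the 18 in the table that the rule did not choose lower and none higher, beside 0.372% and 1.04% of all genes tested, and limma without a block called none in either direction. Among the markers outside the rule, Kit, the stem cell factor receptor, had log2 ratios of -1.50, -0.02 and -0.68, and Sox10, a factor of neural crest and mammary progenitors, -1.19, -0.31 and -0.49. Ehf, an ETS factor of epithelia, had -1.46, -0.10 and -0.42, and Wfdc18, a secreted whey acidic protein family member, -1.20, -0.15 and -1.33. For each of these 4 genes, named after their values were seen, pair 2 was nearest to 0. In the other direction, Bmpr1b, a bone morphogenetic protein receptor, had 2.45, 0.56 and 0.31, and Itga2, an integrin chain, 0.79, 0.46 and 0.50. Trf, Cd14 and Lcn2 had mean log2 ratios of 0.21, 0.16 and -0.03, and these genes too were named after their values were seen. Summed over the list, the level was 92525, 51432 and 102535 for the MIC libraries, against 102671, 60867 and 103515 for the non-MIC libraries. The sum was lower in the MIC library of each pair, and the groups overlapped. It includes the 4 chosen genes, which the rule made lower in every pair, so nothing is read from its direction.

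The other lineage lists held fewer of the 87 genes. The list of milk and secretory genes held Elf5 alone among 14 genes with a mean of 50 or more. The list of luminal keratins, claudins and junction genes held Tjp3 alone among 35. Of the other 34 in it, 15 were lower and 1 higher in all pairs at any size, beside 27.5% and 13.4% of all genes. There was no member among 13 hormone-sensing luminal genes, where the share of 0.73% in all genes also gives a count near 0. The macrophage, lymphocyte, granulocyte, endothelial, red cell, fibroblast and Schwann cell lists held no member, but each has at most 12 genes with a mean of 50 or more, so that a share of 0.73%, as in all genes, also gives a count near 0. Of the 12 fibroblast and stroma markers, 4 were higher in MICs by the mirrored rule, beside 1.14% of all genes. The median of their mean log2 ratios was 0.71, beside -0.07 over all genes. With the block edgeR called 8 of the 21 in the table higher and none lower, beside 1.04% and 0.372% of all genes tested. That list summed to 48969, 43949 and 31111 for the MIC libraries, against 18095, 46490.3 and 22060 for the non-MIC libraries, and its part in the values of the chosen genes was not tested. Of a list of 57 mammary transcription factors with a mean of 50 or more, Elf5 and Myb were chosen. Of the other 55, 26 were lower and 4 higher in all pairs at any size, beside 27.5% and 13.4% of all genes. Among the 62 in the table that the rule did not choose, edgeR with the block called 1 lower and 2 higher, beside 0.372% and 1.04% of all genes tested.

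Elf5 is transcribed from chromosome 2, plus strand, and 1 of its RefSeq starts has a window almost free of annotated exons, which is shown with CG pairs in capitals (GRCm38.p6, chr2:103423818-103424067).
Elf5: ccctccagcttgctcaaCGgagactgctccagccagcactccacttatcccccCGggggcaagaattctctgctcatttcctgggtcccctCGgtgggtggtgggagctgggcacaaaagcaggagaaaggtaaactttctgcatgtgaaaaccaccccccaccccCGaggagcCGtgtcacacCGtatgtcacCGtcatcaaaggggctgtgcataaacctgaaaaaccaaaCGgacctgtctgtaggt
It holds 8 CG pairs.

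Hormones, cytokines and receptors formed a group of 9 genes. Prl2c2 and Prl2c3 encode proliferins, prolactin relatives that act on growth and vessels in placenta. Prl2c3 stood at 75.5, 8956 and 143 in MICs against 139, 12631 and 403 in non-MICs. Prl2c2 stood at 29.1, 1510.5 and 12.8 in MICs against 98.4, 2750.2 and 63.8 in non-MICs. In both genes replicate 2 was far above replicates 1 and 3 in MICs and non-MICs alike. They lie 196 kb apart on chromosome 13 and are near copies, since 69.9% of the 75-base words of the Prl2c3 transcript and 80.1% of those of Prl2c2 also occur in a transcript of another gene. Reads could be split between the copies, so the values of each are uncertain and the genes are not separate observations.

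Ccl20, the chemokine that binds CCR6, stood at 8.63, 2.22 and 161 in MICs against 36, 8.45 and 278 in non-MICs. Pair 3 held most of its signal, and pair 2 rests on 2 and 8 reads. Ltk, a receptor tyrosine kinase, stood at 134, 46.7 and 257 in MICs against 404, 105 and 412 in non-MICs, and Fndc5, the precursor of irisin, at 34.5, 13.3 and 375 in MICs against 79.4, 24.3 and 553 in non-MICs. Both were lowest in pair 2, and their groups overlapped. Pthlh, the parathyroid hormone-related protein that mammary epithelium secretes, stood at 211, 393 and 302 in MICs against 519.7, 587 and 399 in non-MICs, and here every MIC library was below every non-MIC library. Csf2ra, the receptor chain for GM-CSF, stood at 201, 360.4 and 54.8 in MICs against 423, 496 and 76.4 in non-MICs, and Jak3, a kinase that signals for cytokine receptors, at 382, 562 and 234 in MICs against 670.0, 764 and 341 in non-MICs. For both the order of replicates was the same in the groups, with pair 3 lowest. Sema4a, a semaphorin, had a mean log2 ratio of -0.54 ± 0.10 (SD, n = 3 pairs) and no overlap of groups.

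The transport group also held 9 genes. Atp2c2, the calcium and manganese pump of the secretory pathway in mammary epithelium, stood at 159.6, 141 and 93.3 in MICs against 383, 373 and 177 in non-MICs. All MIC values were below all non-MIC values, and the log2 ratios were -1.26, -1.39 and -0.91. Aqp5, a water channel of glands, stood at 1138, 4162 and 1066 in MICs against 1598, 6051 and 1585 in non-MICs, with ratios of -0.49, -0.54 and -0.57 and a level in pair 2 well above the others. Aqp8, another water channel, stood at 7.55, 27.8 and 56.1 in MICs against 24.3, 105 and 89.1 in non-MICs, and Ano9, a member of the anoctamin family, at 100.3, 43.4 and 439 in MICs against 373, 111 and 696 in non-MICs. Stra6, the receptor that takes up retinol from its binding protein, stood at 24.8, 4.45 and 55.4 in MICs against 50.8, 18 and 152 in non-MICs. Ano9 and Stra6 were highest in pair 3 and lowest in pair 2, and no group of libraries was separate for any of these 3. Atp10b, a lipid flippase, stood at 388, 20.0 and 352 in MICs against 1039, 56 and 492 in non-MICs. The solute carriers Slc29a4 and Slc43a2, which move monoamines and amino acids, had mean log2 ratios of -0.73 ± 0.28 and -0.61 ± 0.18 (SD, n = 3 pairs). They were 2 of the 212 solute carriers with a mean of 50 or more, or 0.943%, beside 0.73% of all genes. Kcnab3, a potassium channel subunit, had -0.60 ± 0.21 (SD, n = 3 pairs).

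**Figure D4:**
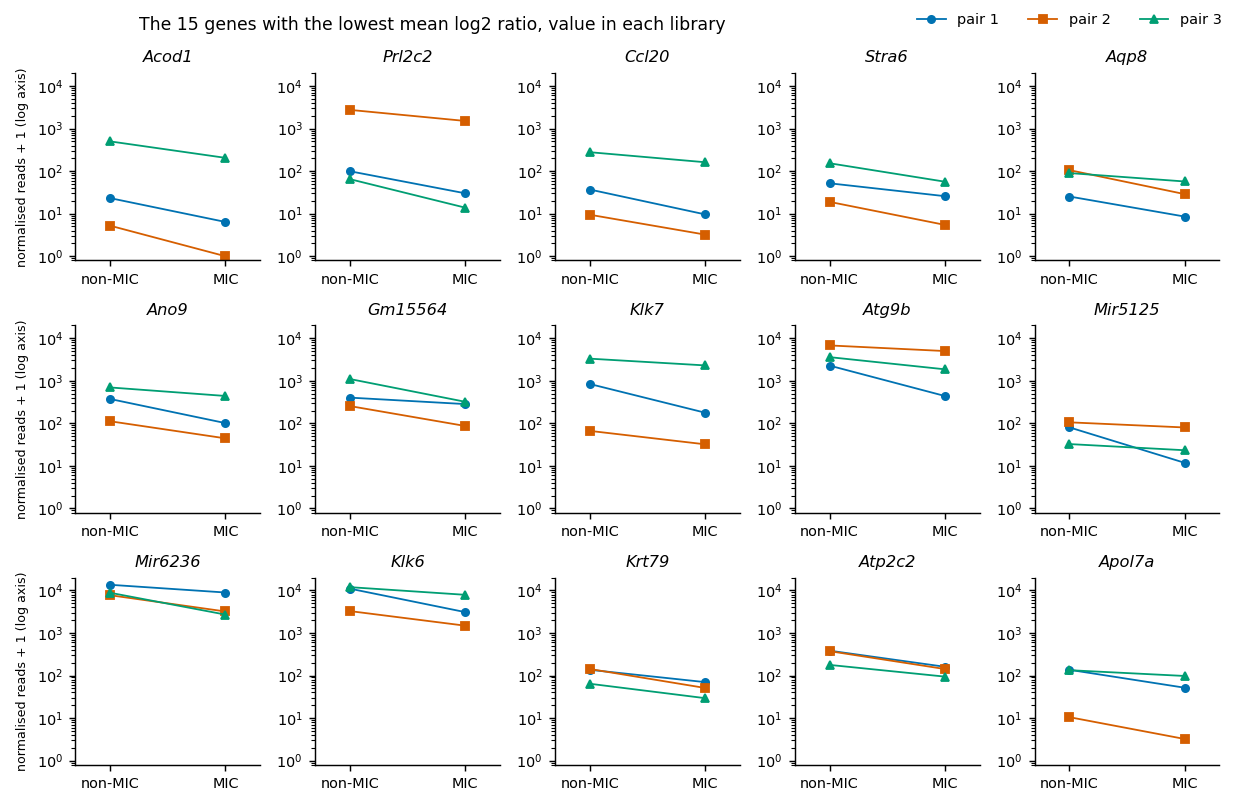
Normalised read count plus 1 (log axis) in each library for the 15 genes with the lowest mean log2 ratio, with a line from the non-MIC to the MIC library of each pair. Lines fall in every panel, as the rule requires, while their heights differ between pairs: by the mean of a pair, pair 2 lies lowest for Acod1, Ccl20, Stra6, Ano9, Gm15564, Klk7, Klk6 and Apol7a and highest for Prl2c2, Atg9b and Mir5125.

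Among the metabolic enzymes, Acod1, which makes itaconate from cis-aconitate and is best known from activated macrophages, had the lowest mean ratio of all 87. It stood at 5.39, 0 and 204 in MICs against 22.2, 4.23 and 499 in non-MICs. Pair 3 held most of its reads, and the ratio of pair 2, -2.39, rests on 0 and 4 reads. Its mean log2 ratio was -2.92 with a pseudocount of 0.1 and -0.94 with 10, so its rank depends on that choice. Of 6 macrophage and monocyte markers with a mean of 50 or more, none was lower in all pairs and 2 were higher, beside 27.5% and 13.4% of all genes. The list summed to between 1481 and 4457 in MICs and between 1381 and 3427 in non-MICs. Of the 29 markers in the table, 11 were at 0 in at least 1 library, Adgre1, Itgam, Fcgr1 and Ptprc among them. Only 4 of the 29 were under 10 in all libraries. In pair 3 the list summed to 3733 in MICs and 3427 in non-MICs. The part of such cells in the values of Acod1 was not tested.

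Gpd1, which links glycolysis to glycerol lipids, stood at 240.5, 89 and 238 in MICs against 418, 172 and 380.1 in non-MICs. Chdh, the mitochondrial choline dehydrogenase, stood at 55, 470.5 and 110.2 in MICs against 170.4, 785 and 203 in non-MICs, and Ldhd, which oxidises D-lactate, at 369.9, 156 and 147 in MICs against 578, 238 and 294 in non-MICs. The groups overlapped for all of them, with pair 2 the lowest for Gpd1 and the highest for Chdh. Sulf2, which removes sulfate groups from heparan sulfate outside the cell, stood at 2349.6, 6530.1 and 1822 in MICs against 3813, 10784 and 2410.5 in non-MICs, and was high in pair 2. B3gnt7, a glycosyltransferase of keratan sulfate, had log2 ratios of -0.46, -1.13 and -0.43. B3gnt7 and Sulf2 were the members among 38 glycosylation and mucin genes. Of the 56 in the table, edgeR with the block called none lower and 2 higher, beside 0.372% and 1.04% of all genes tested. Amdhd2, Hexdc and Nhlrc1, which act on amino sugars or on glycogen, had mean log2 ratios of -0.66, -0.65 and -0.63. Of genes with a mean of 50 or more, the lists of glycolysis and hypoxia (38 genes), fatty acid oxidation and the TCA cycle (53) and the respiratory chain (86) held none of the 87, and lipid and cholesterol genes (54) held Mlxipl alone. At the share of 0.73% in all genes, lists of this size hold few or no members, so nothing is read from these counts.

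Junction, keratin and cytoskeleton genes numbered 9, and in none were the groups separate, beside 4.54% of all genes with separate groups. As above, nothing is read from that count. Krt79, a keratin of hair follicle and sebaceous ducts, stood at 69, 50.1 and 28.4 in MICs against 135, 142 and 63.1 in non-MICs. Tjp3, the tight junction protein ZO-3, stood at 223, 20.0 and 145 in MICs against 623, 45.4 and 196 in non-MICs, and its pair 2 level was low in both groups. Bicdl2, a dynein adaptor relative, had log2 ratios of -1.33, -1.23 and -0.50, and Kif26b, an atypical kinesin, -1.56, -0.82 and -0.49. Vill, a relative of the actin-binding protein villin, lay at the edge of the rule with -1.08, -0.40 and -0.54. Mtcl1 and Map7d2, which bind microtubules, had mean log2 ratios of -0.59 and -0.69, and Eps8l1 and Plekhg6, which act on actin, -0.69 and -0.57.

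A group of 7 genes acts at the centrosome or cilium. Fbf1, a protein of the fibres that hold the cilium to the membrane, stood at 1143, 2989 and 1973 in MICs against 2498, 4367 and 2747 in non-MICs. Wdr90, a centriole wall protein, stood at 570.4, 543 and 845 in MICs against 1178, 1182 and 1173 in non-MICs, with all MIC values under all non-MIC values. Wdr90 overlaps Rhot2 on the same strand, and Rhot2 had log2 ratios of -0.73, -0.35 and -0.28. Cep131, of the centriolar satellites, stood at 288, 380.4 and 241 in MICs against 546, 649 and 337 in non-MICs, and Lrrc45, of the linker between centrioles, at 774, 1149 and 839 in MICs against 1376, 1602 and 1168 in non-MICs. Lrrc45 was separate between groups and Cep131 was not. Stk36, Ccdc57 and Ccdc96 had mean log2 ratios of -0.60 ± 0.05, -0.78 ± 0.32 and -0.73 ± 0.02 (SD, n = 3 pairs). The ratios of Ccdc96 were the most even of the group, -0.71, -0.75 and -0.73. Median transcript GC content was 57.7% in this group, and 1 of the 7 still met the rule after ratios were centred by GC content, as described below.

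Genes of chromatin, transcription and RNA numbered 9, of which 5 had separate groups, beside 4.54% of all genes with a mean of 50 or more. The rule favours this order, so nothing is read from the count. Safb and Safb2 encode scaffold attachment factors that bind DNA and RNA. Safb stood at 2001, 3053 and 2809 in MICs against 3837, 4669.9 and 3932 in non-MICs and Safb2 at 1161, 2276 and 1713 in MICs against 2824, 3215 and 2300.4 in non-MICs. Every MIC value was below every non-MIC value for both. They are transcribed away from each other on chromosome 17, Safb2 at chr17:56560965-56584585 on the minus strand and Safb at chr17:56584825-56606294 on the plus strand, with 239 bases between their annotated starts, and the uncharacterised Gm20219 lies 6.58 kb beyond Safb2. Of the 75-base words of Safb 14.5% are shared with Safb2. Gm20219 stood at 142, 63.4 and 66.9 in MICs against 342, 112 and 108 in non-MICs.

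The stretch between Safb2 and Safb is shown as the 250 bases before the RefSeq start of Safb2, of which the first 11 as printed lie in the annotated first exon of Safb (GRCm38.p6, chr17:56584586-56584835, minus strand, CG pairs in capitals).
Safb2: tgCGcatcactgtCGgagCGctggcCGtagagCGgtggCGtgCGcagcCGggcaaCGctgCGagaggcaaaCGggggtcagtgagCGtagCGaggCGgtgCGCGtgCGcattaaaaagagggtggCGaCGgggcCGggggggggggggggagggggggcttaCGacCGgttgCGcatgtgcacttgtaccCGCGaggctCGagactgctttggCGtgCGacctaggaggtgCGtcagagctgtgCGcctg
It holds 30 CG pairs, beside 4 in the window of Klk7.

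Zfp692, a zinc finger protein, stood at 216, 705 and 467 in MICs against 772, 956 and 943 in non-MICs, and Ankle1, an endonuclease, at 99.2, 138 and 136 in MICs against 315, 225 and 194 in non-MICs. Both were separate between groups, with the lowest value in MIC replicate 1. Ikzf1, the lymphoid factor Ikaros, stood at 308, 2.22 and 431 in MICs against 575, 6.34 and 595 in non-MICs, so that pair 2 rests on 2 and 6 reads. Lymphocyte markers with a mean of 50 or more numbered 1, and the whole list summed to at most 270.5 in a MIC library and 308 in a non-MIC library. Dna2, a nuclease of replication and repair, had a mean log2 ratio of -0.76, Ago4, an Argonaute protein, of -0.61, and Hdac11, a deacylase, of -0.46. Mlxipl, the carbohydrate response factor, stood at 38.8, 15.6 and 83.8 in MICs against 70.9, 26.4 and 138 in non-MICs.

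Signalling, ubiquitin and membrane traffic genes were the largest group, with 14 genes. Atg9b, a lipid scramblase of autophagy, stood at 438, 5001 and 1859.5 in MICs against 2272, 6775 and 3595 in non-MICs, and its pair 1 ratio of -2.37 was far below the others. Syt8, a synaptotagmin, stood at 989, 666 and 1162 in MICs against 1859, 940.3 and 2126 in non-MICs, and Zdhhc23, a palmitoyltransferase, at 85.2, 194 and 166 in MICs against 268, 365 and 268 in non-MICs. Zdhhc23 had separate groups. Map4k2, a kinase of the stress pathway, stood at 472, 642 and 680.3 in MICs against 1063, 959 and 904 in non-MICs, and Trim65, a ubiquitin ligase, at 138, 170.2 and 193 in MICs against 275, 281 and 267 in non-MICs. Both had separate groups too. Trim65 lies 11.2 kb from Fbf1, with Mrpl38 between them. Uba7, which activates the ubiquitin-like ISG15, had log2 ratios of -0.83, -0.53 and -0.50. No member was found among 52 interferon-stimulated genes, where a share of 0.73%, as in all genes, also gives a count near 0. The mean log2 ratios of Rims3, Disp2, Rps6kl1, Reep6, Sgsm3, Efr3b, Gpr137b and Dennd4b lay between -0.90 and -0.47. Gabrp, Syt8 and Sema4a were also the members of a list of 32 neuronal and axon guidance genes.

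A further 9 genes are little described. Apol7a, an apolipoprotein L, stood at 50.7, 2.22 and 96.7 in MICs against 135, 9.51 and 133 in non-MICs, with 2 and 9 reads in pair 2. Prr36, A230050P20Rik, Mslnl, Prob1, Proser3, Tmem94 and Dalrd3 had mean log2 ratios between -1.15 and -0.54. Mslnl and Tmem94 had separate groups.

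The remaining 3 members are noncoding. Mir6236, annotated at chr9:110281287-110281409 and outside other genes, had the highest level of all 87, at 8935, 3201 and 2703 in MICs against 13588, 7723 and 8817 in non-MICs. Per kilobase of annotated exon its level was 60932 normalised counts, compared with 4262 for Klk6, on a gene of 123 bases. Mir5125 stood at 10.8, 79 and 22.3 in MICs against 79.4, 105 and 31.6 in non-MICs, lies inside Srrm2 on the same strand, and Srrm2 had log2 ratios of -1.36, -0.36 and -0.13. The libraries were made from mRNA, so reads on either gene are not a measure of the mature miRNA. Their mature sequences in RefSeq (GRCm38.p6) lie at chr9:110281353-110281371 and chr17:23823339-23823358, both on the plus strand, and are shown with the seed, bases 2 to 8, in capitals.
mmu-miR-6236: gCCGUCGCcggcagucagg
mmu-miR-5125: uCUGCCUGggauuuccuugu
The seeds differ. Gm15564, an antisense gene on chromosome 16, stood at 283, 85.6 and 319.8 in MICs against 401, 254 and 1099 in non-MICs. Of the 816 distinct 30-base words of its transcripts, 23 also occur in Lars2, the mitochondrial leucyl-tRNA synthetase. The log2 ratios of Lars2 were -0.32, -1.04 and -1.68, and the order of the pairs was the same in Gm15564, Lars2 and Mir6236, with pair 3 lowest.

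The members shared features that the rule did not use. The median GC content of the exons was 55.2% in the 84 protein-coding members, 49.7% in 11535 coding genes with a mean of 50 or more, and 48.0% in the coding genes higher in MICs in every pair. In the 25% of coding genes with the highest GC content lay 47 members (56.0%), and in the lowest 25% lay 4. When all genes were split into 4 equal bins of GC content, the rule was met by 0.133% in the lowest bin, 0.399% and 0.731% in the next and 1.63% in the highest. Over 12045 genes the log2 ratio had a Spearman correlation with GC content of -0.18 in pair 1, -0.56 in pair 2 and -0.03 in pair 3, and with exonic length of -0.36, -0.11 and -0.02. From the lowest to the highest bin of GC content the median log2 ratio of all genes went from 0.05 to -0.25 in pair 1 and from 0.39 to -0.34 in pair 2, while in pair 3 it was -0.05 and -0.07. The ratios of all genes thus moved with GC content in pairs 1 and 2, and the rule was therefore also applied to centred ratios.

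**Figure D5:**
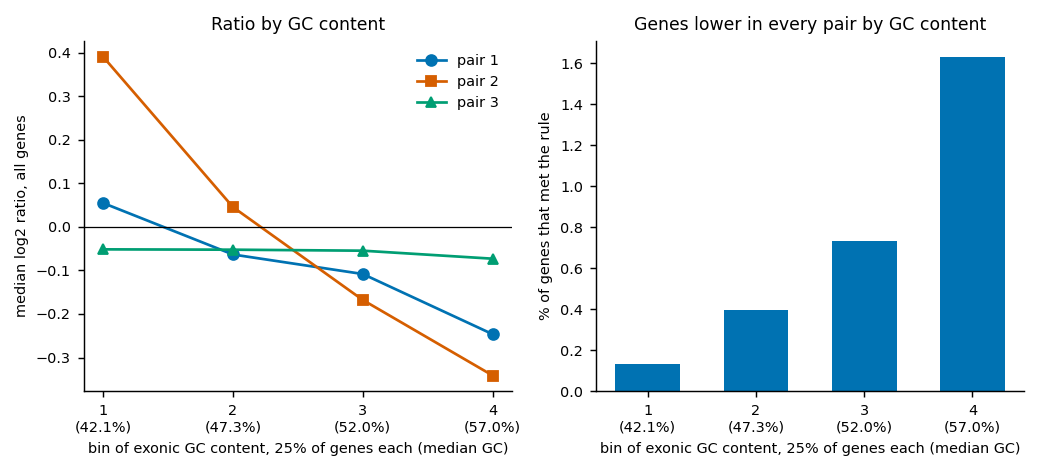
Left, median log2 ratio of all genes with a mean of 50 or more in each of 4 equal bins of exonic GC content, a line per pair. Right, percentage of genes in each bin that met the rule. The line of pair 2 falls from 0.39 to -0.34 and that of pair 3 is nearly flat, and the share of genes that met the rule rises from 0.133% to 1.63%.

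When the median of the GC decile was taken off each pair's ratios, an alternative chosen after the data were seen, 42 genes met the rule and 34 of the 87 were among them. The serine proteases kept 4 of 4, the hormones and cytokines 5 of 9, the transport genes 5 of 9 and the luminal group 3 of 5 (Elf5, Gabrp and Pglyrp1). The chromatin and RNA group kept 2 of 9 (Ikzf1 and Mlxipl), the centrosome group 1 of 7 (Ccdc96) and the noncoding genes 1 of 3 (Gm15564). The junction group kept 4 of 9, the metabolic enzymes 3 of 9, the signalling group 5 of 14 and the little-described genes 1 of 9. These counts rest on the ratios the rule used, with median mean log2 ratios of -1.16 for the proteases and -0.72 for the centrosome group. The groups were made with results known, so nothing is read from their order. The median of the members' mean log2 ratios was -0.60 after this centring. Safb, Safb2, Fbf1, Wdr90, Atg9b, Sulf2 and Zfp692 were among those that no longer met the rule.

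Coding members spanned a median of 15.8 kb of genome against 25.1 kb over coding genes with a mean of 50 or more, with 12 and 10 exons and an exonic length of 4186 and 4628 bases. A retained intron transcript was annotated for 61.9% of them and 60.8% of all. Some members overlap a gene on the other strand (Atg9b with Nos3 and Tjp3 with Apba3, for example), and whether the counting used strand is not given in the sources used here, so reads of such partners cannot be told apart. Promoter windows of 300 bases, 250 before and 50 after a RefSeq start, were matched by symbol for 68 of the 87, giving 93 windows, and for 12025 windows of genes with a mean of 50 or more. Their median GC content was 59.7% in members and 61.0% in all, and the median number of CG pairs 15 and 21, so the higher GC content of the transcripts was not seen in the promoters. Searched on both strands, the letters CCAAT were in 28.0% of member windows and 37.8% of all, TATAAA in 4.30% and 6.92%, CACGTG in 8.60% and 9.94%, and TGACGTCA in 1.08% and 3.07%. The letters TTCNNNGAA were in 8.60% and 6.61%, TTCNNTTTC in 7.53% and 6.69%, and CCGGAAG in 5.38% and 17.8%. The last, a pattern of the ETS family, was in 5 of the 93 member windows. None of the 3 windows printed above holds any of these letters, which says nothing of the factors that bind there.

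At the edge of the rule the highest of the 3 ratios was -0.401 for Hdac11, Mir5125 and Vill inside it. Just outside lay Zfp362 at -0.399, Dnmt3b, a DNA methyltransferase, at -0.398, and Lmln at -0.397. The lowest mean levels inside were those of Stra6 at 50.9, Aqp8 at 51.6 and Efr3b at 52.1.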

How the data were processed

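RNA of 3 MIC and 3 non-MIC libraries was sequenced as paired 75-base reads from stranded mRNA libraries. Reads were aligned by the authors to GRCm38/mm10 transcripts, counted per gene and scaled to the size of the library. The deposited signal is the result, here called the normalised read count. The methods name Bowtie2, while the submitters' processing notes name STAR and HTSeq, with versions not given in the sources used here. Divided by the worth of 1 read in the library, between 99.99% and 100.0% of the values came out as whole reads (within 0.01), summing to 31467281 to 51759769 per library. This depth sets counting error only. Whether the replicates were separate tumors is not given in the labels. The paper's figure legend gives 3 independent experiments or tumors for this comparison, without saying which. Without the block the p-values measure the spread between these samples within a group. With the block they measure the spread of the difference between MICs and non-MICs over these 3 pairs.

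Pair ratios were computed with a pseudocount of 1. Tests ran over 22310 genes with limma 3.58.1 on log2(value + 1) with Benjamini-Hochberg adjustment, and with edgeR 4.0.16 (quasi-likelihood) and DESeq2 1.42.0 on the recovered reads, in R 4.3.3. Same-numbered libraries departed from their group means together (correlations of 0.80, 0.85 and 0.89, and between -0.23 and -0.67 for other numbers), so the numbers pair the samples. The procedures were tested on simulated data. Symbols, positions and GC content came from GENCODE vM21 (22161 of 22310 identifiers). The members, the lists and the groups by role were chosen with earlier results of these data known. Genes named by rule were the 15 lowest ratios, the 8 highest levels, up to 5 members of each list or family holding 2 or more, the 3 genes on each side of the limit and the sorting and lineage genes, 1 of which is not reported here. Alternatives were other pseudocounts, limits, level floors, scalings, blocks, left-out replicates and centring by GC content or length.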

Additional observations from a re-analysis of the deposited data

How the results depend on the processing

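The number of genes that met the rule depends most on which pairs enter it. Without replicate 1, 2 or 3 it lay between 137 and 1049, with the median of the members' mean log2 ratios between -0.87 and -0.69. It was 242 at a limit of -0.3 and 36 at -0.5, 42 after centring by GC decile and 49 after centring by GC and length together, with 34 and 33 of the 87 among them. Other pseudocounts, level floors and scalings gave between 66 and 109 genes, taking off the median of the pair 61 and of the length decile 64, and DESeq2 size factors kept 50 of the 87, quantile normalization 54 and TMM 64. The genes chosen on 2 pairs that reached the limit in the pair left out numbered 44, 41 and 33 after GC centring for pairs 1, 2 and 3, in place of 88, 87 and 80, out of 64, 353 and 440 chosen genes in place of 137, 523 and 1049. As shares these were 68.8%, 11.6% and 7.50%, beside 22.1%, 10.9% and 5.26% of all genes. In pair 2, 31.2% of the chosen genes were below 0 after GC centring, beside 50.2% of all. Calls over all genes depended on the pairing: with the replicate block limma called 29, edgeR 315 and DESeq2 133, and DESeq2 without it 1. Pseudocounts, TMM, a level filter and leaving out any 1 library left limma without a block at 0 calls, with between 131 and 1201 genes at an unadjusted p under 0.05. No member's mean log2 ratio changed sign under any alternative run. The rule, which requires -0.4 or lower in every pair, largely fixes this outcome, so nothing is read from it. Low depth limits the 8 members with fewer than 10 reads in a library.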
